A study of Mus musculus with 22 samples.

Results

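Inguinal subcutaneous fat of mice carrying double-knockout marrow, 3 arrays, was compared across all genes with inguinal fat of mice carrying wild-type (WT) marrow, 4 arrays. These 7 arrays were taken by their labels from 22 in the series. The double knockout (DKO) lacks Gipr and S100a9 in the transplanted marrow (Gipr-/-S100a9-/-), and the WT group received WT marrow. A group of 3 inguinal arrays with Gipr-/- marrow shares the first deletion and is given beside them. The mice were male C57BL/6J chimeras, left 6 weeks for the marrow to reconstitute and then fed for 14 weeks on high-fat chow (60% fat calories). Diet, strain and sex were the same in every group, and no group was kept off this diet. WT and Gipr-/- marrow went into WT recipients; which mice received the DKO marrow is not stated in the sources used here. Cells that do not come from marrow, adipocytes included, keep the genotype of the recipient, and any recipient blood cells that outlived the transplant would keep it too. The labels do not say whether an array holds 1 mouse or a pool, so the p-values cover the spread among arrays, which may be partly technical.

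GIP is an incretin, a gut hormone released after meals that raises insulin secretion through its receptor, the product of Gipr. S100a9 encodes a calcium-binding protein that pairs with S100A8 to form calprotectin, an alarmin stored in neutrophils and monocytes that can drive inflammation in obese fat. Inguinal fat is the main subcutaneous depot of the mouse and encloses the inguinal lymph node, lies against skin and leg muscle, and can form beige adipocytes.

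Values are the deposited ones, read as log2 values, on 19337 genes, of which 14503 remained after the lowest 25% by mean were left out at a log2 value of 4.42. The 3 DKO arrays had medians between 6.21 and 6.23, and the WT arrays had medians between 6.16 and 6.26. The DKO arrays were not alike: DKO 1 and DKO 3 correlated with r = 0.983 over genes, while DKO 2 correlated with DKO 1 at 0.942 and with DKO 3 at 0.944. Defining adipocyte genes marked every array as fat, with a mean over 6 measured markers of 17.81 to 17.94 with DKO marrow and 17.68 to 17.99 with WT marrow. The depot markers Tbx15, Hoxc9 and Hoxc10 averaged 6.59 to 7.08 with DKO marrow and 6.50 to 8.54 with WT marrow. T-cell markers averaged 5.44 to 11.02 over the DKO arrays and 5.64 to 6.15 over the WT arrays, which sets DKO 1 and DKO 3 apart. Muscle markers averaged 7.38 to 15.47 over the DKO arrays and 5.93 to 17.95 over the WT arrays, so they varied within both groups. In whole tissue, fewer cells of a type and less RNA per cell cannot be told apart.

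No gene passed the threshold between DKO and WT marrow at a limma adjusted p under 0.05 (0 of 14503, percent called 0). The lowest adjusted p was 0.0591. An unadjusted p under 0.05 was reached by 1958 genes (13.5%). Of these, 1026 (7.07%) were higher and 932 (6.43%) were lower with DKO marrow. The 3 DKO arrays lay above all 4 WT arrays for 736 genes (5.07%) and below all of them for 857 (5.91%), together 1593 (11%). The median log2 difference over all genes tested was -0.01, and 48.9% of differences were positive. The count of passing genes turned on DKO 2: without it 615 genes (4.24%) passed, 547 (3.77%) higher and 68 (0.469%) lower, while without DKO 1 and DKO 3 the count was 0 with 1785 genes (12.3%) at an unadjusted p under 0.05. Without WT 1 only Cryab passed and without WT 2 only H2bc18 passed.

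The targeted genes did not separate the groups. Gipr had log2 values of 5.76, 4.92 and 5.56 with DKO marrow, against 5.31, 4.36, 5.51 and 4.86 with WT marrow, a difference of 0.40 (SE 0.37, limma adjusted p = 0.697). S100a9 had 6.35, 6.18 and 4.94 with DKO marrow, against 5.12, 5.82, 6.45 and 5.23 with WT marrow, a difference of 0.17 (SE 0.48, adjusted p = 0.921). Its partner S100a8 had 4.93, 4.63 and 5.14 with DKO marrow, against 5.65, 6.49, 4.65 and 5.60 with WT marrow (difference -0.70, SE 0.52, adjusted p = 0.618). The groups overlapped for each gene, and all 3 lay low on the scale. The position of the probes against the deleted exons is unknown, and the values therefore do not test the genotype labels. Leaving out WT 1, DKO 1 or DKO 2 turned the small S100a9 difference to -0.01, -0.09 and -0.01.

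The gene with the smallest p-value was C5ar1, which encodes the receptor for complement fragment C5a on neutrophils and macrophages. Its log2 values were 6.16, 6.40 and 6.33 with DKO marrow, against 8.30, 9.01, 9.03 and 8.52 with WT marrow. The groups were apart by more than the range of either, and the difference was -2.42 (SE 0.32, limma adjusted p = 0.0591). Gipr-/- marrow arrays, at 8.16, 7.04 and 7.77, lay above all DKO arrays and below all WT arrays. Cryab, a small heat-shock chaperone, had 12.74, 12.91 and 12.26 with DKO marrow, against 14.09, 14.83, 15.32 and 14.70 with WT marrow (-2.10, SE 0.28, adjusted p = 0.0591). Mest, an imprinted gene that marks expanding adipocytes, had 17.07, 17.04 and 17.35 with DKO marrow, against 18.32, 19.05, 18.10 and 19.11 with WT marrow (-1.49, SE 0.27, adjusted p = 0.0736). With Gipr-/- marrow Mest stood at 19.55, 19.83 and 19.27, above all WT arrays.

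The other genes of the 10 smallest p-values on the lower side ranged from -1.23 to -1.83, with adjusted p between 0.0635 and 0.0736. Hspg2, the basement membrane proteoglycan perlecan, differed by -1.23 (SE 0.20). Clec4a1, a C-type lectin receptor of myeloid cells, had 6.73, 7.72 and 6.86 with DKO marrow, against 8.56, 9.40, 8.90 and 8.88 with WT marrow (-1.83, SE 0.32). Cyb5r3, a cytochrome b5 reductase of lipid and redox metabolism, differed by -1.48 (SE 0.25), and Tecr, which completes the elongation cycle of very long fatty acids, by -1.32 (SE 0.23). Kctd17, a substrate adaptor of a ubiquitin ligase, differed by -1.69, the muscle-rich kinase gene Dmpk by -1.60, and Gpc4, a glypican released by fat cells, by -1.53. Since these genes were picked for small p-values, the separation of their groups on all 7 arrays is part of the choice. Dmpk is also a muscle gene, and muscle genes varied widely from array to array within both groups.

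On the higher side, 5 of the 10 smallest p-values belonged to ribosomal protein genes. The others were Cnot6l, a deadenylase subunit that shortens mRNA tails, Eef1b2, a translation elongation factor subunit, the histone gene H4c4, the proton channel Hvcn1 of B cells and phagocytes, and Srgn. Cnot6l had 11.63, 11.41 and 11.37 with DKO marrow, against 10.15, 9.95, 9.60 and 9.21 with WT marrow (1.74, SE 0.26, adjusted p = 0.0591). Eef1b2 differed by 1.29 (SE 0.20, adjusted p = 0.0635). Hvcn1 had 7.89, 6.45 and 8.05 with DKO marrow, against 4.55, 5.20, 4.80 and 4.67 with WT marrow (2.66, SE 0.41, adjusted p = 0.0635), with DKO 2 the lowest of its group. Srgn, the proteoglycan of secretory granules in blood cells, had 14.88, 14.30 and 14.60 with DKO marrow, against 12.55, 12.04, 12.87 and 13.34 with WT marrow (1.89, SE 0.30, adjusted p = 0.0635). With Gipr-/- marrow Srgn was at 15.44, 15.17 and 15.80, above the DKO arrays as well.

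**Figure D1:**
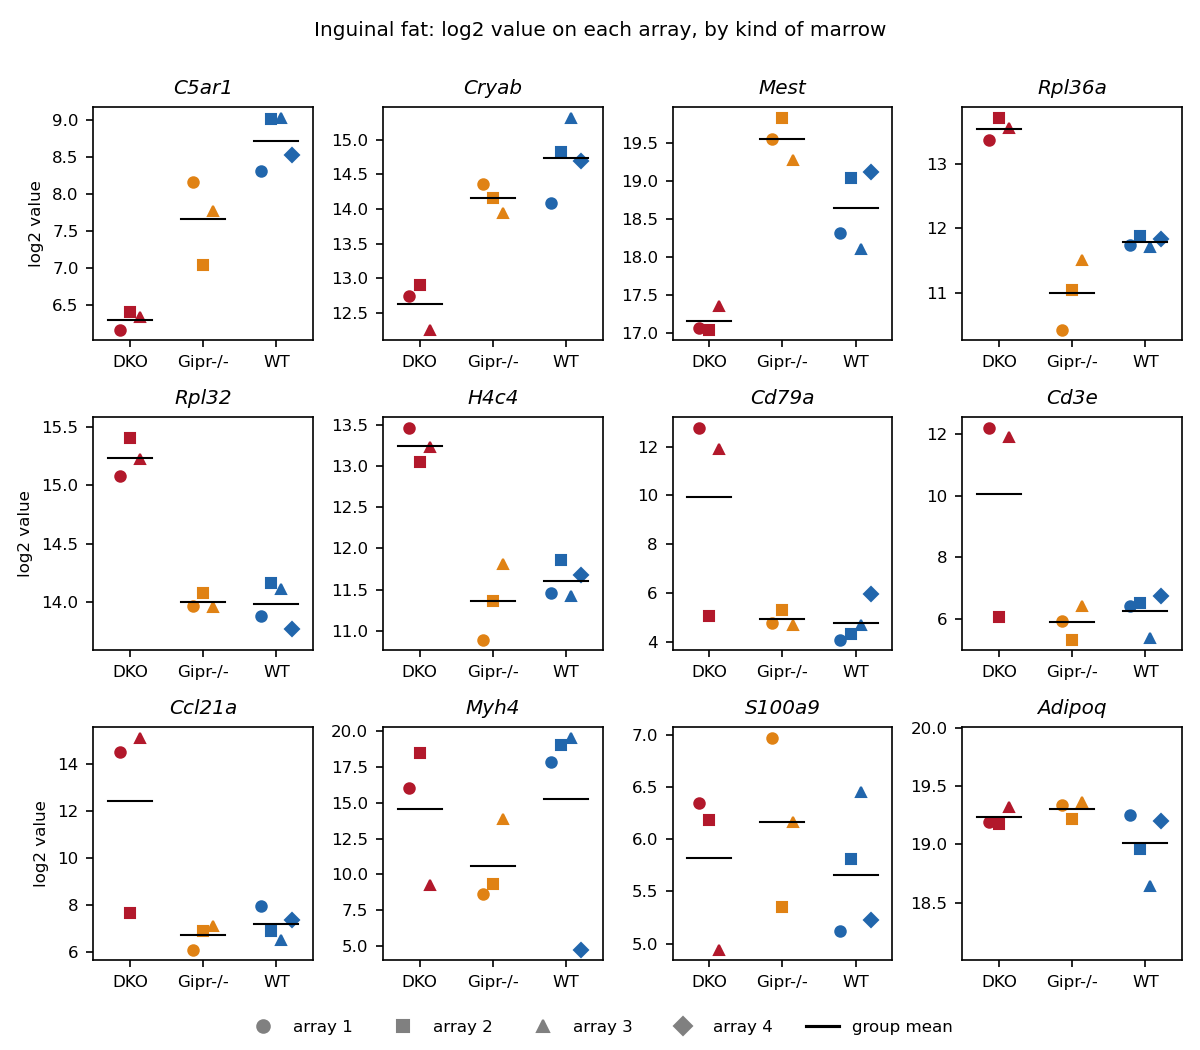
Log2 value (vertical axis, a separate scale in each panel) of 12 genes on every inguinal array, with DKO, Gipr-/- and WT marrow from left to right; marker shape gives the array number within its group and the line the group mean. C5ar1, Cryab and Mest lie lower and Rpl36a, Rpl32 and H4c4 higher on all 3 DKO arrays than on any WT array, while Cd79a, Cd3e and Ccl21a are high on DKO 1 and DKO 3 only.

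Cytosolic ribosomal proteins build the subunits of the ribosome in the cytoplasm, and their genes are usually expressed in step. Rpl36a had log2 values of 13.38, 13.72 and 13.56 with DKO marrow, against 11.74, 11.88, 11.71 and 11.84 with WT marrow, a difference of 1.76 (SE 0.25, limma adjusted p = 0.0591). Rpl32 had 15.08, 15.40 and 15.22 with DKO marrow, against 13.88, 14.16, 14.11 and 13.76 with WT marrow (1.26, SE 0.18, adjusted p = 0.0591). Rps7 had 15.14, 14.98 and 14.99 with DKO marrow, against 13.51, 13.83, 13.88 and 12.98 with WT marrow (1.49, SE 0.25, adjusted p = 0.0666). For all 3 genes the lowest DKO array stood further above the highest WT array than the DKO arrays stood from each other. Rpl19 differed by 1.32 (SE 0.21), Rpl7a by 1.36 (SE 0.23) and Rpl37 by 1.32 (SE 0.23).

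The ribosomal pattern covered the family. All 53 cytosolic ribosomal protein genes in the table were measured above the filter, and all 53 had a positive difference, against 48.9% of all genes. Their median was 1.11 and their range 0.36 to 1.76, against a median of -0.01 over all genes. On 42 of the 53 the DKO arrays lay above all WT arrays (background 5.07%), and 50 had an unadjusted p under 0.05 (background 7.07% on the higher side); 0 passed the adjusted threshold. Averaged over the family, the deviation from the WT mean was 1.16, 0.93 and 1.23 on DKO 1, 2 and 3. It was -0.21, -0.46 and -0.01 on the Gipr-/- arrays and -0.05, 0.26, 0.05 and -0.26 on the WT arrays. DKO 2, on which lymphocyte genes were at the WT level, was above all WT arrays for 42 of the 53 genes (background 21.8%) and below all of them for 1 (background 26.7%). The 76 mitochondrial ribosomal protein genes, which serve the separate ribosome of mitochondria, had a median of -0.06 with 34 of 76 positive. Ribosomal protein genes have many near-identical pseudogene copies in the genome, so the value of a single member is uncertain where its probes match several of them.

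**Figure D2:**
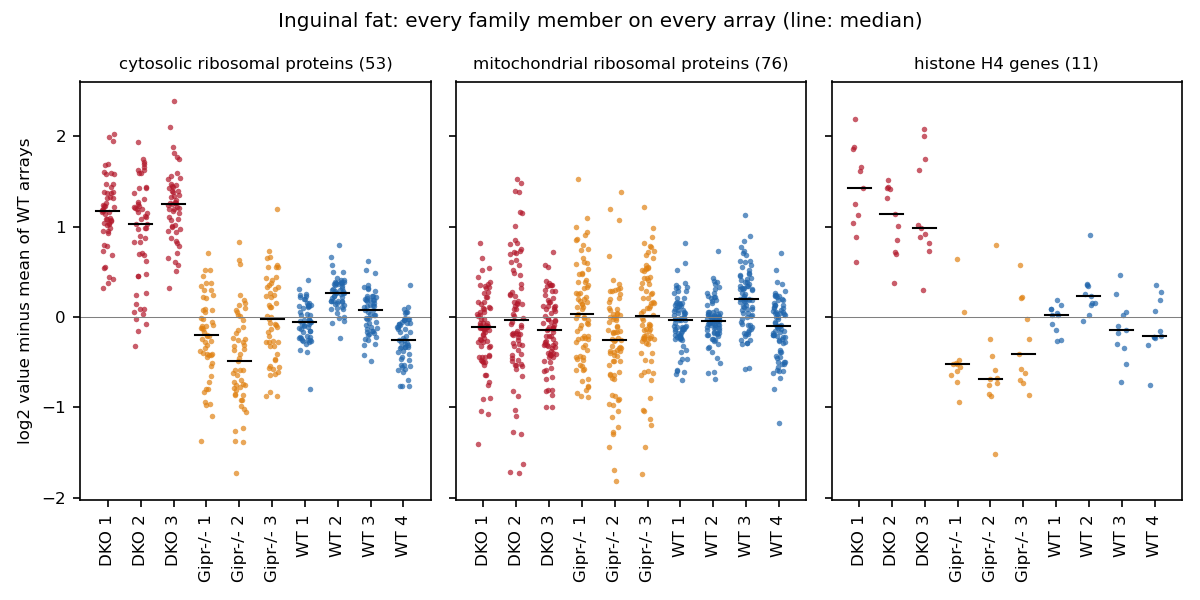
Log2 value minus the mean of the WT arrays (vertical axis) for every member of 3 gene families on every inguinal array, in the order DKO, Gipr-/- and WT marrow; each point is a gene and each line the median of the array. Cytosolic ribosomal protein and histone H4 genes lie near 1 log2 unit on all 3 DKO arrays, and mitochondrial ribosomal protein genes lie around 0.

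The promoters of the leading ribosomal and histone genes are shown because the differences had 1 sign across nearly all members of these families. Sequences are RefSeq's for GRCm38.p6, from 100 bases before to 20 after the gene start, written in the direction of transcription. In the first 4, capitals mark CGGAAG or its reverse complement CTTCCG, the core recognised by ETS-family factors; in the last 3 they mark TATAAA, the TATA box. Rpl36a is at chrX:134585554-134585673 on the plus strand, Rps7 at chr12:28635934-28636053 on the minus strand, Rpl37 at chr15:5116513-5116632 on the plus strand and Rpl7a at chr2:26910707-26910826 on the plus strand. H4c4 is at chr13:23581468-23581587 on the plus strand, H4c1 at chr13:23761230-23761349 on the minus strand and H2ac8 at chr13:23571201-23571320 on the minus strand.
Rpl36a: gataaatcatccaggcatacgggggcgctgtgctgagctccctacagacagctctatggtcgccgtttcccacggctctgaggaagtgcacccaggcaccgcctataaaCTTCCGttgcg
Rps7: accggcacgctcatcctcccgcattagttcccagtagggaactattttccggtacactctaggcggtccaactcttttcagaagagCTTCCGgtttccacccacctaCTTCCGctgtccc
Rpl37: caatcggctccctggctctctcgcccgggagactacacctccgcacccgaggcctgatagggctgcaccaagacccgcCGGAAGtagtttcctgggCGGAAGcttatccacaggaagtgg
Rpl7a: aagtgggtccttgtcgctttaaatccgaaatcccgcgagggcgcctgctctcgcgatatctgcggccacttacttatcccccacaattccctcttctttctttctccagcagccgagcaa
H4c4: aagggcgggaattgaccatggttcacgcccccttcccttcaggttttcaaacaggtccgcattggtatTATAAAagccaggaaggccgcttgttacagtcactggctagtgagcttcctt
H4c1: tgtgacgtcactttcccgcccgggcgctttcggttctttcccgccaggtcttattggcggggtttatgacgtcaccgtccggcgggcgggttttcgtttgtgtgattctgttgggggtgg
H2ac8: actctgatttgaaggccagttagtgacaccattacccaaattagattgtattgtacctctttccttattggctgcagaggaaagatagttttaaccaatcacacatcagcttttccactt
Both strands were searched in each 120-base window. CGGAAG was in 21 of 41 ribosomal protein promoters with an entry (51.2%), against 17.4% of the 11703 promoters of genes tested and 10.6% of all 27025 promoters. Rps7 and Rpl37 held 2 matches each, Rpl36a and Rpl19 held 1, and the Rpl7a and Rpl35 windows held 0. TATAAA was in 13 of 44 promoters of histone H2A, H2B, H3 and H4 genes (29.5%), against 5.0% of genes tested and 6.46% of all promoters. H4c4 held 1 match, and the H4c1 and H2ac8 windows held 0. The 2 motifs cannot overlap each other, a promoter with several matches was counted once, and a match describes the letters only.

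Replication-dependent histone genes encode the core histones that package newly made DNA and are normally transcribed in S phase, without poly(A) tails. H4c4 had 13.47, 13.04 and 13.23 with DKO marrow, against 11.46, 11.86, 11.43 and 11.68 with WT marrow (1.64, SE 0.25, limma adjusted p = 0.0614). H4c1 had 14.55, 14.45 and 14.12 with DKO marrow, against 13.15, 13.48, 12.99 and 12.91 with WT marrow (1.24, SE 0.24, adjusted p = 0.0808). H2ac8 had 9.12, 10.40 and 9.39 with DKO marrow, against 7.93, 8.75, 7.75 and 8.11 with WT marrow (1.50, SE 0.37, adjusted p = 0.123). In each of these genes every DKO array was above every WT array.

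Across the histone families, 11 of 11 tested H4 genes, 9 of 9 H3 genes, 13 of 13 H2A genes and 14 of 15 H2B genes had positive differences. Their medians were 1.24, 1.15, 1.35 and 1.10, and the DKO arrays stood above all WT arrays for 11, 7, 12 and 8 of them (background 5.07%). The linker histone family H1 had 4 tested members with a median of 0.92, led by H1f1 at 1.58 (SE 0.43). DKO 2 was the highest of its group for the H3, H2A and H2B means, at 2.1, 1.9 and 1.5 above WT. WT 2 was the highest WT array for the same means, at 0.68, 0.47 and 0.29 above the WT mean. The H4 means were 1.4, 1.1 and 1.2 on DKO 1, 2 and 3. Histone copies are nearly identical within a family, so members are not independent readings. The cell cycle list, with other S-phase and mitosis genes, had a median of 0.23, with 17 of 22 positive and 1 of 22 at an unadjusted p under 0.05 on the higher side, below the background of 7.07%.

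Splicing factors, which act on pre-mRNA in the nucleus, had differences of 1 sign as well. All 22 tested members had positive differences (background 48.9%), with a median of 0.59, and for 10 the DKO arrays lay above all WT arrays (background 5.07%). Srsf3, an SR protein that guides exon choice, had 10.28, 10.41 and 10.44 with DKO marrow, against 9.42, 9.50, 8.89 and 9.08 with WT marrow (1.15, SE 0.23, limma adjusted p = 0.0808). Srsf1, the founding SR protein, differed by 1.36 (SE 0.33), and Clk4, a kinase that phosphorylates SR proteins, by 0.96 (SE 0.26). The 48 translation initiation factor genes had a median of 0.20 and the 23 proteasome genes a median of -0.03.

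**Figure D3:**
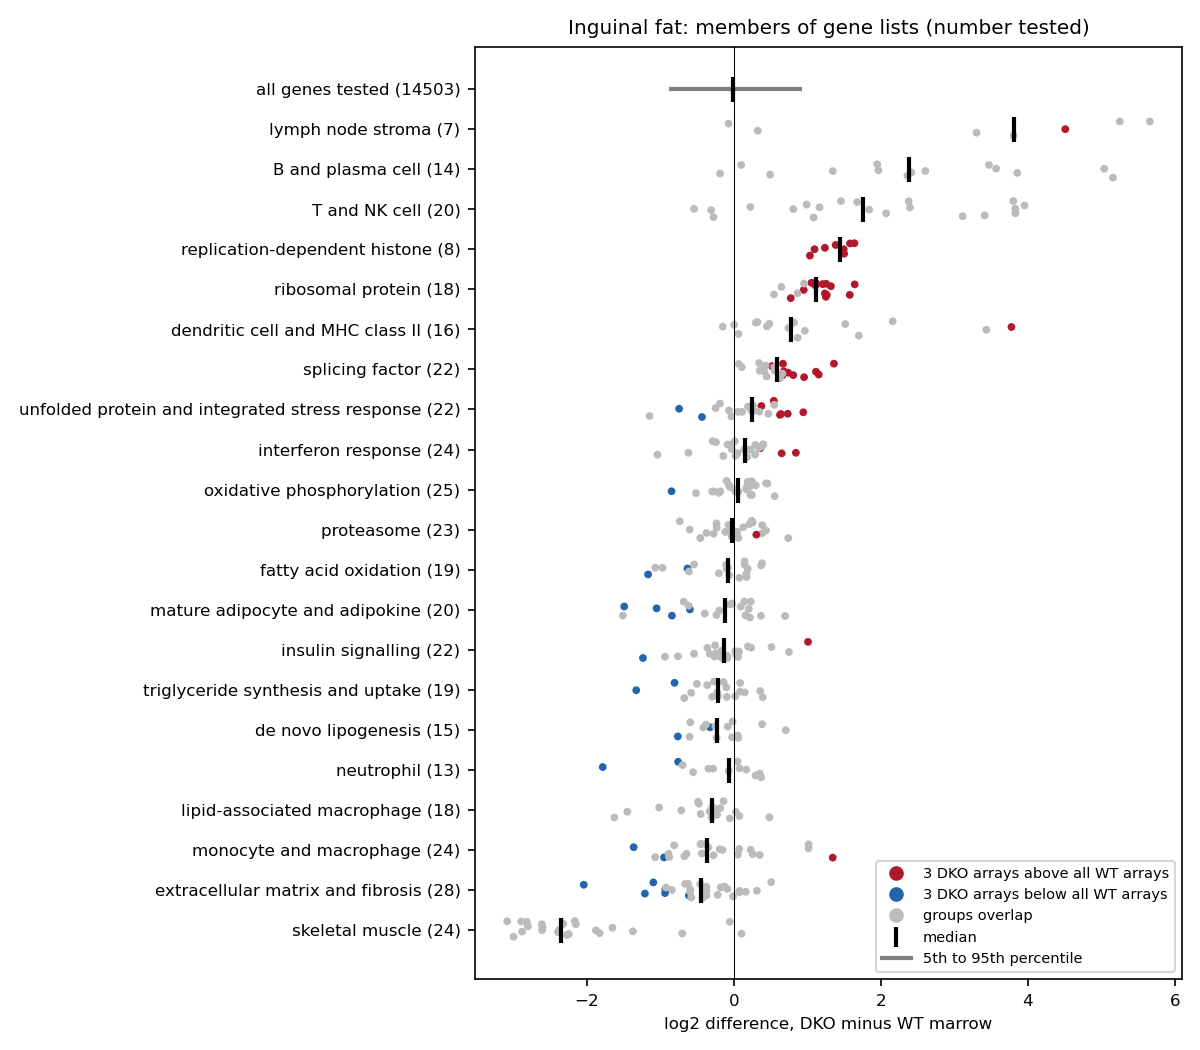
Log2 difference, DKO minus WT marrow (horizontal axis), of each tested member of 21 gene lists, with the number tested in parentheses, the list median as a black tick and, at the top, the median and the 5th to 95th percentile of all genes tested. Red and blue points are genes whose 3 DKO arrays lie above or below all WT arrays; histone and ribosomal protein members are mostly red, while the lymphocyte lists with the highest medians are mostly grey.

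Lymphocyte and lymph node lists had the highest medians, and these rested on 2 of the 3 DKO arrays. Cd79a, a subunit of the B-cell receptor complex, had 12.78, 5.06 and 11.92 with DKO marrow, against 4.08, 4.30, 4.70 and 5.96 with WT marrow (5.16, SE 1.39, limma adjusted p = 0.152). Cd3e, a subunit of the T-cell receptor complex, had 12.21, 6.08 and 11.92 with DKO marrow, against 6.42, 6.53, 5.39 and 6.73 with WT marrow (3.80, SE 1.15, adjusted p = 0.188). Ccl21a, a chemokine that draws T cells and dendritic cells into lymph nodes, had 14.52, 7.63 and 15.13 with DKO marrow, against 7.94, 6.90, 6.51 and 7.34 with WT marrow (5.25, SE 1.35, adjusted p = 0.138). For these 3 genes DKO 2 lay within the range of the WT arrays. Ccl21a has near-identical copies, Ccl21b and Ccl21c, whose probes may read the same transcripts.

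Other B-cell and lymph node genes were also highest on DKO 1 and DKO 3. Pax5, the master regulator of B-cell identity, had 9.44, 4.34 and 9.24 with DKO marrow, against 3.90 to 4.50 with WT marrow. Ltb, a lymphotoxin subunit needed to form lymph nodes, had 10.64, 5.09 and 10.64 with DKO marrow, against 4.29 to 5.41 with WT marrow. Cxcl13, the chemokine of B-cell follicles, had 15.97, 10.86 and 15.53 with DKO marrow, against 8.31, 9.92, 9.44 and 10.76 with WT marrow, so that DKO 2 exceeded the highest WT array only narrowly. H2-Ob, part of the peptide-editing machinery of B cells, had 10.97, 6.40 and 10.55 with DKO marrow, against 5.02 to 6.03 with WT marrow, with DKO 2 again only just above. Averaged over lists, B and plasma cell genes deviated from the WT mean by 3.65, 0.05 and 3.62 on DKO 1, 2 and 3, T and NK cell genes by 2.75, -0.25 and 3.03, and lymph node stroma genes by 4.72, 0.05 and 5.0.

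Dendritic cell and MHC class II genes followed the same arrays, with means of 1.75, -0.19 and 1.72 on DKO 1, 2 and 3. Their median was 0.78, with 15 of 16 positive, and -0.13 with DKO 2 as the only DKO array. At an unadjusted p under 0.05, 6 of 16 were on the higher side (background 7.07%). Of 14 B and plasma cell genes tested 11, of 20 T and NK cell genes 15, and of 7 lymph node stroma genes 5 had an unadjusted p under 0.05 on the higher side (background 7.07%), and none passed the adjusted threshold. Without DKO 2, 11, 13 and 5 of them passed it (background 3.77% on the higher side). DKO 2 is the array on which these lists were at the WT level. Higher counts without it follow from that and are no separate support. The smallest p-values without DKO 2 were those of Cd22, an inhibitory receptor of B cells, at 7.68 (SE 0.31), Apol7c at 6.94 (SE 0.33) and Ptprc, the pan-leukocyte antigen CD45, at 5.0 (SE 0.27), genes singled out after their values were seen. Cd22 was at 3.42 to 3.85 on the WT arrays, below the filter's log2 value of 4.42. It passed the filter through DKO 1 and DKO 3 only. With DKO 2 as the only DKO array, the medians of the B, T and lymph node lists were -0.01, -0.20 and -0.10. Ribosomal protein genes were 0.93 above WT on that array and histone H4 genes 1.1 above. Whether a lymph node lay in the pieces of fat behind DKO 1 and DKO 3 was not tested.

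**Figure D4:**
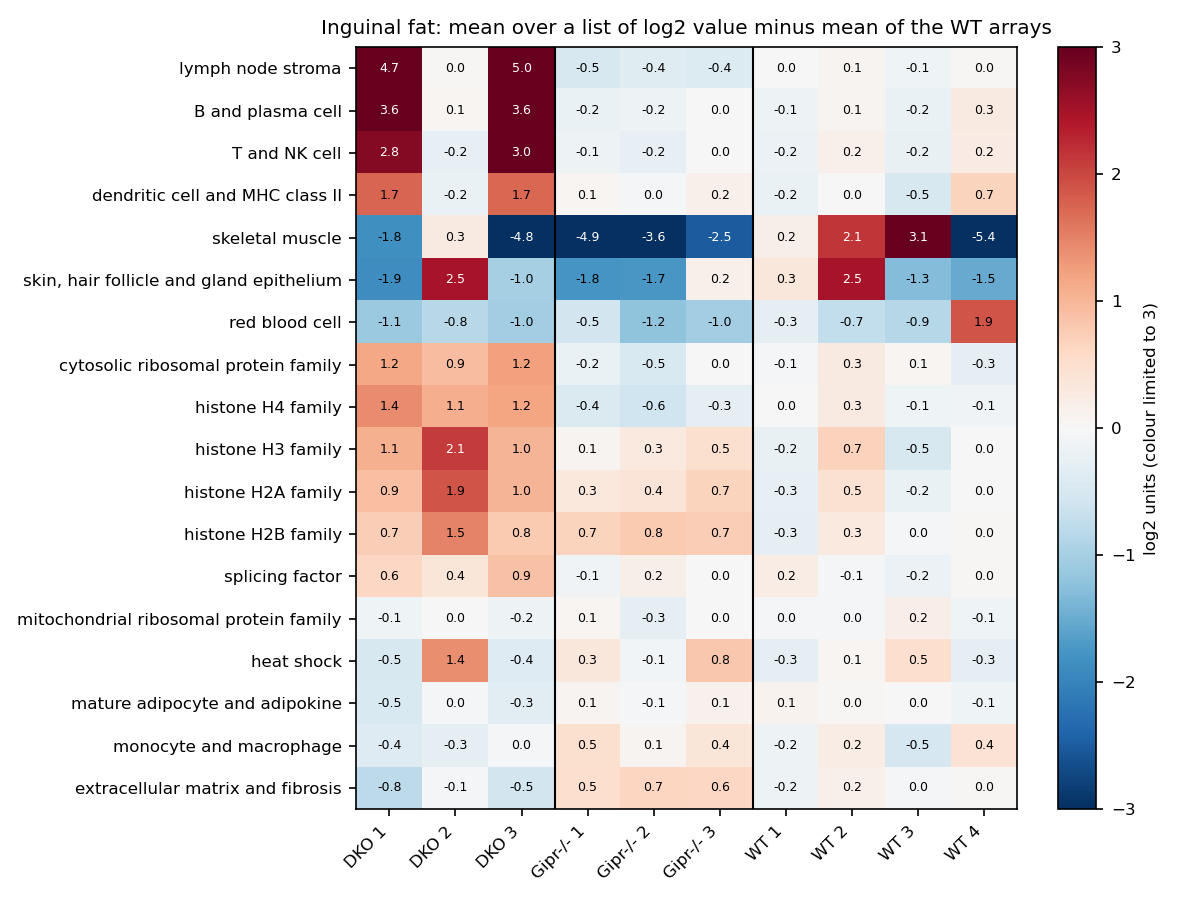
Mean over the tested members of a list of the log2 value minus the mean of the WT arrays, for 18 lists (rows) on 10 inguinal arrays (columns, DKO then Gipr-/- then WT marrow); colour is limited to 3 log2 units. Lymphocyte and lymph node lists are high on DKO 1 and DKO 3 and near 0 on DKO 2. Cytosolic ribosomal protein and histone lists are above 0 on all 3 DKO arrays. The histone H3, H2A and H2B lists are also above 0 on every Gipr-/- array. The mitochondrial ribosomal protein list is near 0 on the DKO arrays, and muscle and skin lists change sign within groups.

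Skeletal muscle and skin genes varied within groups. Myh4, the fastest myosin heavy chain, had 16.05, 18.47 and 9.26 with DKO marrow, against 17.85, 19.03, 19.56 and 4.73 with WT marrow. The arrays therefore spanned most of the scale in both groups, and the difference of -0.70 (SE 3.24, limma adjusted p = 0.954) turned positive without WT 1, WT 2, WT 3 or DKO 3. Acta1, skeletal alpha-actin, differed by -1.88 (SE 2.66) and was 0.54 without DKO 3. The muscle list had a median of -2.35, with 23 of 24 members negative and 0 of 24 at an unadjusted p under 0.05. The skin, hair follicle and gland epithelium list was 2.48 above WT on DKO 2 and -1.86 and -1.0 on DKO 1 and DKO 3, while WT 2 was at 2.47. The red blood cell gene Alas2, the erythroid enzyme that starts haem synthesis, stood at 11.25 on WT 4 and at 6.51 to 7.24 on the DKO arrays. Whether these tissues bear on the other differences was not tested.

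Among genes of myeloid cells, the cells that make most S100a9, the macrophage lists had mostly negative differences and the neutrophil list was split. None passed the threshold. The monocyte and macrophage list had a median of -0.37, with 16 of 24 members negative. At an unadjusted p under 0.05, 5 were on the lower side (background 6.43%) and 2 on the higher side (background 7.07%). Mrc1, the mannose receptor of resident macrophages, had 12.21, 13.28 and 12.35 with DKO marrow, against 13.54, 13.60, 13.40 and 13.71 with WT marrow (-0.95, SE 0.27, limma adjusted p = 0.178). Itgam, the integrin CD11b of myeloid cells, had 7.43, 8.50 and 8.05 with DKO marrow, against 8.57, 9.85, 8.75 and 10.25 with WT marrow (-1.36, SE 0.41, adjusted p = 0.189). Both lay lower on every DKO array than on any WT array, as did 2 of 24 in the list in all (background 5.91%), and 1 lay above (background 5.07%). Adgre1, a surface receptor that marks mouse macrophages, differed by -1.07 (SE 0.39) with overlapping groups, and Marco, a scavenger receptor, lay the other way at 1.35 (SE 0.41).

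The lipid-associated macrophage list, genes of macrophages that take up lipid around dying adipocytes, had a median of -0.30 with 15 of 18 negative and 0 at an unadjusted p under 0.05. Of the neutrophil list, 13 members were tested, with a median of -0.07, 6 of them higher and 7 lower. Lcn2, a siderophore-binding protein made by neutrophils and adipocytes, had 5.52, 5.19 and 3.99 with DKO marrow, against 6.01, 6.35, 7.45 and 6.93 with WT marrow (-1.78, SE 0.54, limma adjusted p = 0.187). Elane, neutrophil elastase, differed by -0.76 (SE 0.33). Neutrophil markers as a whole averaged 5.05 to 5.50 with DKO marrow and 5.07 to 5.45 with WT marrow, near the low end of the scale. In the list of S100 proteins and alarmin receptors, the nuclear alarmin Hmgb1 stood at 16.10, 16.34 and 16.40 with DKO marrow, against 15.49, 15.10, 15.25 and 15.51 with WT marrow (0.94, SE 0.22, adjusted p = 0.111). S100a11, another calcium-binding family member, differed by -0.65 (SE 0.25), and the list median was -0.14.

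Extracellular matrix genes, which build the scaffold around adipocytes, had mostly negative differences. The list had a median of -0.44, with 23 of 28 members negative. At an unadjusted p under 0.05, 8 were on the lower side (background 6.43%). For 6 members all DKO arrays lay below all WT arrays (background 5.91%). Thbs1, the matrix glycoprotein thrombospondin that activates TGF-beta, had 10.06, 9.20 and 10.54 with DKO marrow, against 11.20, 13.22, 11.37 and 12.11 with WT marrow (-2.04, SE 0.53, limma adjusted p = 0.136). Timp1, an inhibitor of matrix metalloproteinases, had 3.70, 3.87 and 4.34 with DKO marrow, against 5.16, 5.49, 4.74 and 5.33 with WT marrow (-1.21, SE 0.32). Its DKO values all lay below the filter's log2 value of 4.42, near the low end of the scale. Col1a1, the main fibrillar collagen chain, differed by -1.10 (SE 0.31) and Acta2, smooth muscle actin of myofibroblasts and vessels, by -0.93 (SE 0.27). The list means were -0.79, -0.07 and -0.55 on DKO 1, 2 and 3, so DKO 2 lay close to WT although it was the lowest DKO array for Thbs1 and Acta2. With DKO 2 as the only DKO array the list median was 0.10.

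Adipocyte identity genes had a list median of -0.13 over 20 members, and 0.12 with DKO 2 as the only DKO array. Of the 20, 5 were at an unadjusted p under 0.05 on the lower side (background 6.43%) and 4 had all DKO arrays below all WT arrays (background 5.91%). The list means were -0.46, -0.05 and -0.33 on DKO 1, 2 and 3, so DKO 2 was at the WT level. Adipoq, which encodes adiponectin, had 19.19, 19.18 and 19.32 with DKO marrow, against 19.25, 18.96, 18.64 and 19.20 with WT marrow (0.22, SE 0.19). Lep, which encodes leptin, had 17.07, 16.74 and 17.57 with DKO marrow, against 17.18, 18.23, 17.54 and 18.30 with WT marrow (-0.68, SE 0.30, limma adjusted p = 0.348). Sfrp5, a secreted Wnt inhibitor of adipocytes, differed by -1.51 (SE 0.66) and Tmem182, a membrane protein gene, by -1.05 (SE 0.37). Of the 20 members, 12 were lower and 8 higher in the mean (background 48.9% positive). Mest, Sfrp5, Lep and Tmem182, named for the smallest p-values of the list, were lower, and Adipoq was higher.

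The lists of lipid handling had medians between -0.23 and -0.06. Groups did not overlap for 2 of 19 fatty acid oxidation genes and 2 of 19 genes of triglyceride synthesis and uptake. The same held for 2 of 15 de novo lipogenesis genes and 3 of 16 lipolysis and lipid droplet genes. All of these were lower with DKO marrow (background 5.91% lower, 11% in either direction). Cpt1a, the gatekeeper of mitochondrial fatty acid oxidation, had 9.53, 9.07 and 9.47 with DKO marrow, against 10.10, 11.10, 10.40 and 10.50 with WT marrow (-1.17, SE 0.27, limma adjusted p = 0.106). Its partner Cpt2 differed by -0.63 (SE 0.26), and the fatty acid oxidation list had a median of -0.08 with 11 of 19 negative. Vldlr, a receptor for triglyceride-rich lipoproteins, had 11.62, 12.23 and 11.05 with DKO marrow, against 12.37, 13.23, 13.70 and 12.54 with WT marrow (-1.33, SE 0.37). Dgat1, which makes the last step of triglyceride synthesis, differed by -0.81 (SE 0.34), in a list with a median of -0.22. Bscl2 (seipin, of lipid droplet assembly) differed by -0.66 (SE 0.26) and Npr3, the natriuretic peptide clearance receptor, by -0.64 (SE 0.26). Me1, which supplies NADPH for lipogenesis, differed by -0.76 (SE 0.28). Thrsp of the lipogenesis list lay the other way, at 0.71 (SE 0.39). So did Plin1 of the lipolysis and lipid droplet list, at 0.49 (SE 0.23). For both genes the groups overlapped. In the lipolysis and lipid droplet list 10 of 16 members were negative. The de novo lipogenesis list had a median of -0.23 with 11 of 15 negative, and of 0.24 with DKO 2 as the only DKO array, and the oxidative phosphorylation list 0.06 with 16 of 25 positive.

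In insulin signalling, 2 of 22 genes had groups that did not overlap, a share no higher than the background of 11%, and the list median was -0.13. Irs2, an adaptor of the insulin receptor, had 12.30, 10.19 and 11.58 with DKO marrow, against 12.76, 12.63, 12.43 and 12.54 with WT marrow (-1.24, SE 0.46, limma adjusted p = 0.271). Ptpn1, the phosphatase PTP1B that switches the receptor off, had 11.38, 10.47 and 11.04 with DKO marrow, against 9.74, 10.46, 10.07 and 9.54 with WT marrow (1.01, SE 0.28, adjusted p = 0.169), with DKO 2 barely above WT 2. On the GIP receptor axis, whose 10 tested genes had a median of -0.06, Adcy5, an adenylyl cyclase that makes cAMP downstream of such receptors, had 9.69, 9.13 and 10.06 with DKO marrow, against 10.50, 10.69, 10.63 and 10.39 with WT marrow (-0.93, SE 0.25, adjusted p = 0.149). Il18, an interleukin processed by inflammasomes, was separated in the other direction at 1.04 (SE 0.32). The inflammatory cytokine and chemokine list had a median of -0.09, and means of 0.32, -0.03 and 0.58 on DKO 1, 2 and 3. Of its members, 6 of 28 were at an unadjusted p under 0.05 on the higher side (background 7.07%). Cxcl13 and Ccl21a of the lymph node genes were among them. The interferon response list had a median of 0.16 with 16 of 24 positive, and of -0.15 without DKO 2. At an unadjusted p under 0.05, 1 of 24 was on the higher side, below the background of 7.07%. For 3 of 24 all DKO arrays lay above all WT arrays (background 5.07%). DKO 2 lay above all WT arrays for 13 of 24 (background 21.8%) and below all of them for 1 (background 26.7%).

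The unfolded protein and integrated stress response list was mixed. Its median was 0.25, with 6 of 22 genes above WT on all DKO arrays (background 5.07%) and 2 of 22 below, near the background of 5.91%. Herpud1, which takes part in the degradation of endoplasmic reticulum proteins, had 13.62, 14.02 and 13.71 with DKO marrow, against 12.60, 12.84, 13.30 and 12.60 with WT marrow (0.95, SE 0.27, limma adjusted p = 0.178). Asns, asparagine synthetase and a target of ATF4, differed by -0.75 (SE 0.26). Heat shock genes were 1.4 above WT on DKO 2 and -0.5 and -0.4 on DKO 1 and DKO 3, and Cryab of the same list was low on all 3 arrays.

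The Gipr-/- arrays show which values differ between the 2 kinds of knockout marrow. For DKO minus Gipr-/- marrow, 505 of 14503 genes (3.48%) passed the limma threshold, 121 (0.834%) higher and 384 (2.65%) lower with DKO marrow. This comparison shares its DKO arrays with the comparison against WT. Of the ribosomal protein genes 34 of 53 passed on the higher side, with a family median of 1.36. Of the histone H4 genes 9 of 11 did, with a median of 1.79. Fewer members of the other histone families passed: 1 of 9 H3, 0 of 13 H2A, 2 of 15 H2B and 0 of 4 H1 genes, with medians of 0.93, 0.79, 0.25 and 0.95. The mean of H2B genes was 0.75, 1.50 and 0.79 above WT on DKO 1, 2 and 3 and 0.67, 0.79 and 0.74 above WT on the Gipr-/- arrays, so DKO 1 and DKO 3 were level with Gipr-/- marrow there. H2A genes were 0.31, 0.39 and 0.68 above WT on the Gipr-/- arrays. Rpl36a rose by 2.56 (adjusted p = 0.00315) with Gipr-/- values of 10.43, 11.04 and 11.51, and H4c4 rose by 1.89 (adjusted p = 0.00644). Rpsa, a protein of the small ribosomal subunit, had 14.02, 14.03 and 14.01 with DKO marrow, against 11.99, 11.53 and 12.21 with Gipr-/- marrow (2.11, adjusted p = 0.00509).

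On the lower side against Gipr-/- marrow, Mest fell by 2.40 (limma adjusted p = 0.00529), Cyb5r3 fell by 2.32 (adjusted p = 0.00509) and Cpt1a fell by 1.74 (adjusted p = 0.0103). Thbs1 fell to 10.06, 9.20 and 10.54 with DKO marrow, against 14.87, 15.25 and 13.57 with Gipr-/- marrow (-4.63, adjusted p = 0.00529). Mrc1 fell by 1.68 (adjusted p = 0.0128), Lep fell by 1.44 (adjusted p = 0.0331) and Lcn2 fell by 2.69 (adjusted p = 0.0284). Of the extracellular matrix list 7 of 28 genes fell and of the lipid-associated macrophage list 4 of 18 fell (background 2.65%). C5ar1 differed by -1.36 and did not pass (adjusted p = 0.0512). The count was 131 without Gipr-/- 1, 50 without Gipr-/- 2, 70 without DKO 1, 1363 without DKO 2, 171 without DKO 3 and 0 without DKO 1 and DKO 3 together.

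Epididymal fat, an abdominal depot, gave the same contrast on 8 other arrays of the series, with 4 per kind of marrow. Its values come from a fit of all 22 arrays, on the genes kept by their inguinal mean. The inguinal values beside them come from the fit of 10 arrays, so SEs and counts are not like for like. In the fit of 22 arrays the inguinal count was 141. In epididymal fat 0 of 14503 genes passed the limma threshold and the lowest adjusted p was 0.627. The epididymal arrays were not alike within groups. Epcam, an epithelial gene, had 12.29, 4.83, 11.29 and 5.17 with DKO marrow, against 5.54, 11.31, 8.60 and 5.55 with WT marrow. The sperm gene Prm2 had 11.64, 5.44, 9.73 and 4.98, against 10.51, 12.75, 4.39 and 4.98. Whether this spread bears on the count was not tested, and a count of 0 does not show equal expression. An unadjusted p under 0.05 was reached by 489 genes (3.37%). C5ar1 differed by -1.78 (SE 0.37) in epididymal fat beside -2.42 in inguinal fat, and the depot difference was -0.64 (adjusted p = 0.824). Ribosomal protein genes had a median of 0.11 in epididymal fat beside 1.11 in inguinal fat, and histone H4 genes -0.18 beside 1.24. Mrc1 had -1.23 (SE 0.43) beside -0.95, and Adgre1 -1.05 (SE 0.51) beside -1.07.

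The test of the depot difference itself called 0 genes (limma, lowest adjusted p 0.124). An unadjusted p under 0.05 was reached by 1273 genes (8.78%). The 5 smallest p-values were those of Ints13, a subunit of the integrator complex, Ewsr1, an RNA-binding protein, Cdc42se1, an effector of the GTPase CDC42, St8sia1, a ganglioside sialyltransferase, and Rpsa. Ewsr1 differed by 1.12 in inguinal and by -0.36 in epididymal fat, a depot difference of 1.47 (adjusted p = 0.124). Rpsa differed by 1.23 in inguinal and by -0.25 in epididymal fat (1.48, adjusted p = 0.124), and Ints13 by 0.78 and -1.12 (1.9). No single gene was thus shown to differ between depots. The count was 291 without inguinal DKO 2; without inguinal WT 4 only Lmod3 passed, and without epididymal DKO 1 only Ewsr1 and Rps7 passed.

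**Figure D5:**
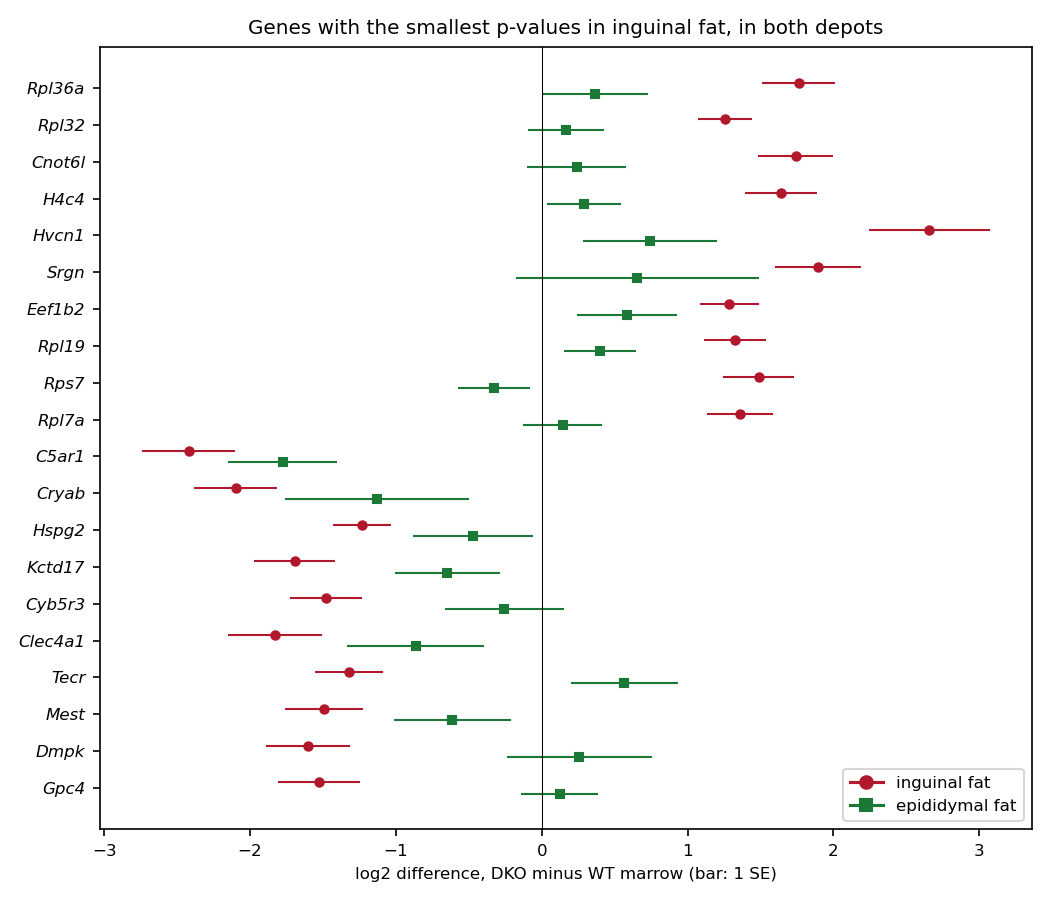
Log2 difference, DKO minus WT marrow, with 1 SE (horizontal axis), in inguinal fat (circles) and epididymal fat (squares) for the 10 genes with the smallest p-values in inguinal fat in each direction. Of these genes, C5ar1 is the one whose epididymal value, -1.78, comes nearest in size to its inguinal value, -2.42; the 5 ribosomal protein genes lie between -0.33 and 0.40 in epididymal fat.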

How the data were processed

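Expression was measured on 1-colour Affymetrix whole-transcript arrays from 100 ng of total RNA. The values the authors deposited for 21793 features were taken as log2 values. Per the submitters' processing notes Partek 6.6 was among the tools; its role, the log base and the normalization are not stated in the sources used here. The platform annotation gave 1 symbol to 19341 features and none to 2452. Of 4 genes with 2 features the brighter was kept. Groups came from the labels, and arrays are numbered in accession order, which pairs nothing.

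The 10 inguinal arrays were fitted in 3 groups with limma 3.58.1 (lmFit, eBayes with a trend) in R 4.3.3, two-sided, with Benjamini-Hochberg adjustment over 14503 genes and a threshold of 0.05. The depot difference and the epididymal difference came from a fit of all 22 arrays. Scripts were tested on simulated data. Array data carry no read depth, so the number of arrays limits precision.

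The comparison and its 43 gene lists were chosen with earlier results of these data known, and 12 symbol families were added after the values were seen. Genes eligible for naming were Gipr, S100a8, S100a9, the 10 smallest p-values in each direction and the 5 smallest of the depot difference. The 4 smallest of each list were eligible too. For many lists only some of these 4 are printed, and for some lists none. A few others are named with their family or an alternative. Alternatives were other filters, fits, scalings, array weights and leaving out arrays.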

Additional observations from a re-analysis of the deposited data

Results flagged for a closer look

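Among the 81 genes named or considered, the 4 WT inguinal arrays were searched for an array whose gap to the nearest of the others took up an unusually large share of the group's range. Chance alone flags about 1 in 20 such groups, and 7 genes were flagged. WT 4 stood apart for 4 of them: Myh4 was at 4.73 against 17.85 to 19.56 on the others (gap share 0.884), Alas2 at 11.25 against 7.37 to 7.71 (0.912), Bscl2 at 13.76 against 12.94 to 13.05 (0.860) and Rps20 at 12.12 against 12.85 to 12.97 (0.853). WT 1 stood apart for Tra2b, at 14.18 against 13.68 to 13.72 (0.912), and for Asns, at 14.02 against 13.39 to 13.44 (0.922). WT 2 stood apart for Cdc42se1, at 8.83 against 8.19 to 8.28 (0.859). Groups of 3 arrays were not examined in this way.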

How the results depend on the processing

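The count of 0 genes for DKO minus WT marrow stayed 0 with no filter, without a trend, with DKO and WT arrays alone, with median-centred arrays and without DKO 1 and DKO 3 together. It was 13 with the lowest 50% of genes left out, 34 with robust eBayes, 141 with all 22 arrays in one fit, 4 after quantile normalization (C5ar1, Cryab, Rpl32 and Cnot6l), 555 with array weights and 15 with unnamed features included. Leaving out 1 inguinal array gave 0 to 615, the highest without DKO 2. The depot difference gave 303 genes with array weights and 0 to 291 with 1 array left out. DKO minus Gipr-/- marrow gave 1797 genes with array weights, 0 without DKO 1 and DKO 3, and 50 to 1363 with 1 array left out; the 505 calls were 121 higher and 384 lower, against 224 and 260 in the 22-array fit. Changes of the filter, of the eBayes options or of the arrays outside the DKO and WT groups leave the difference of a gene as it is. A direction could therefore turn only under other scalings, array weights or without DKO or WT arrays. Of the 81 genes examined, 76 kept their direction in every one of the 21 settings in which they were tested. The others turned as follows: S100a9 to -0.01, -0.092 and -0.01 without WT 1, DKO 1 and DKO 2 (leaving out 1 array gave -0.092 to 0.61); Myh4 to 0.15, 0.54, 0.72 and 1.96 without WT 1, WT 2, WT 3 and DKO 3, and to 3.17 without DKO 1 and DKO 3 (range -4.22 to 1.96); Acta1 to 0.54 without DKO 3 and 2.27 without DKO 1 and DKO 3 (range -4.60 to 0.54). Without DKO 1 and DKO 3, Gipr turned to -0.10 and Cd3e to -0.19. The cause was not tested. Of the list medians under these settings, 875 moved by less than 1 SD between replicates and 27 by more. Many of the 875 come from settings that leave the difference of each gene as it is. The epididymis epithelium list had no value with the lowest 50% left out. The count of genes whose groups did not overlap ran from 2037 to 3856 with 1 array left out, since fewer arrays had to be separated. No paired analysis was possible because the labels give the arrays no shared replicate numbers. Settings without DKO 1 and DKO 3 leave 1 DKO array, assumed to vary like the other groups; they were chosen after seeing the data.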

Other observations

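Several further gene groups of the inguinal comparison were small or had medians nearer to 0. The 2 red blood cell genes tested had a median of -0.99 and the 4 epididymis epithelium genes -0.42, with 0 positive in both lists. Mesothelium genes had a median of -0.31 over 7, nerve and Schwann cell genes -0.29 over 11 and testis germ cell genes 0.13 over 6. Mast cell genes were negative in 9 of 9 members with a median of -0.26 and 0 at an unadjusted p under 0.05. Thermogenic and beige genes had a median of -0.21 over 15 tested members, with 11 negative. Sterol synthesis genes had a median of 0.16 over 17, branched-chain amino acid breakdown genes -0.09 over 19, endothelial genes -0.05 over 19 (0.19 without WT 4) and adipose progenitor genes -0.17 over 17. Circadian clock genes had a median of -0.28 over 16, with 12 negative and 1 at an unadjusted p under 0.05 on the lower side (background 6.43%). Immediate early genes had a median of -0.20 over 23. Glucocorticoid response genes had a median of -0.13 over 17, lipolysis and lipid droplet genes -0.06 over 16 and type 2 immunity and eosinophil genes -0.07 over 9.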
